A study of Mus musculus with 16 samples.

Results

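The data described here are the H3K4me3 regions of immortalized mouse embryonic fibroblasts, taken as every row of the single H3K4me3 list that was deposited: 26654 of the 135884 regions listed in the series for 3 antibodies. They came from 4 of the 16 samples, measured by ChIP-seq, the sequencing of DNA that comes down with an antibody to a chromatin protein. The Sdhcfl/fl line (R26M2rtTA/+;TetOcre;Sdhcfl/fl) and the Sdhcfl/wt line (R26M2rtTA/+;TetOcre;Sdhcfl/wt) each gave 2 of these samples, named as replicates in the labels. Both lines carried the reverse tetracycline transactivator and the inducible Cre recombinase, and both had received doxycycline at 1 µg/mL and were sampled at day 16. Cre removes the floxed copies of Sdhc, a subunit of succinate dehydrogenase. Each genotype was 1 cell line, and all 4 samples share 1 list. No comparison of the lines is therefore possible, no value has a spread between samples, and a region cannot be ascribed to 1 line or to both.

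H3K4me3 is trimethylation of lysine 4 on histone H3. It is laid down by SET1 and MLL complexes, which CXXC-domain proteins help to bring to unmethylated CpG islands, and it marks the nucleosomes that flank starts of transcribed genes. Broad domains of the mark are known at genes of cell identity, and at developmental genes it can sit beside H3K27me3, the mark of Polycomb repression.

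The regions covered 50.4 Mb and lay on a grid of 100 bp. Their width ranged from 200 to 31100 bp with quartiles of 300, 1100 and 3100 bp. A gene was called marked when a region shared at least 1 base with the 1000 bp on either side of one of its outer ends, and widths are those of the widest such region. By this rule 12163 of 21887 protein-coding genes of the RefSeq annotation of GRCm38.p6 (mm10) were marked, 55.6% (95% exact binomial CI 54.9 to 56.2, counting error only). A further 1258 genes, 5.75%, had a region inside the gene alone, and 8466 (38.7%) had neither. With the stricter rule that a region's midpoint lie in the window, 8082 genes (36.9%) were marked and 4986 had a region inside alone. A wide region can cover a gene end while its midpoint lies outside the window. The widest region at a marked gene had quartiles of 2500, 3500 and 4600 bp. The window left 234 genes just outside, whose nearest region began 1001 to 1500 bp from an end.

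Promoter sequences of 5 genes, chosen after their values were seen, show the letters on which the later counts rest. They run from 250 bases before to 50 after the start, on the gene's strand and 5′ to 3′, and come from the RefSeq table of GRCm38.p6, with the CG dinucleotides (CpG sites) in capitals. For these 5, marked means a region within 1000 bp of the start shown. Rps6, a ribosomal protein gene, and Ldha, the lactate dehydrogenase A gene of glycolysis, were marked and CpG-rich, though by gene ends Ldha counts as unmarked. Col3a1, the collagen chain of type III fibrils, was marked with no CpG in these bases. Sycp1, a protein of the meiotic synaptonemal complex, was unmarked although CpG-rich. Alb, the albumin gene of liver, was unmarked and CpG-poor.
Rps6: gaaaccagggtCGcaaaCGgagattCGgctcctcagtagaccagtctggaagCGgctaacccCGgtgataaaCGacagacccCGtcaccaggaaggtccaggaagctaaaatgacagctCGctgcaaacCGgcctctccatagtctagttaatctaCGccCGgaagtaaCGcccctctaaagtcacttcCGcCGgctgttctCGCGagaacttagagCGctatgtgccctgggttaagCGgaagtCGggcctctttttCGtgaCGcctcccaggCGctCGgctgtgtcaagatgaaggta
Ldha: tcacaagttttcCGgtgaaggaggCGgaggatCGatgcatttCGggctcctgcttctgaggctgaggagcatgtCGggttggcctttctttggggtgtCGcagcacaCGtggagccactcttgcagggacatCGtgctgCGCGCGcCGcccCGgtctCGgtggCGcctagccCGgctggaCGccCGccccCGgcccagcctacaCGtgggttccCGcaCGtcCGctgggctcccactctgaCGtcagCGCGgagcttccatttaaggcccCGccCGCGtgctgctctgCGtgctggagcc
Col3a1: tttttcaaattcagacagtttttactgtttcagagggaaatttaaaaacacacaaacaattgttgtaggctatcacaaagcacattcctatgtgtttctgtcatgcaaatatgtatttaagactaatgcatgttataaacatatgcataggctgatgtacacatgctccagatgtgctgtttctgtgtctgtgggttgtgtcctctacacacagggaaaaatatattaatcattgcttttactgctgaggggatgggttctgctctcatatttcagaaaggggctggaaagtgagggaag
Sycp1: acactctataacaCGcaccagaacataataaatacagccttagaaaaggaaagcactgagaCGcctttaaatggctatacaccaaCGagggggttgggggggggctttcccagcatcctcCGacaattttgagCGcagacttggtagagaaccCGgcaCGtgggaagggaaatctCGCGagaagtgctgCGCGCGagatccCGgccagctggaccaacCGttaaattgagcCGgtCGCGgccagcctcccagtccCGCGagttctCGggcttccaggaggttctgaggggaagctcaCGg
Alb: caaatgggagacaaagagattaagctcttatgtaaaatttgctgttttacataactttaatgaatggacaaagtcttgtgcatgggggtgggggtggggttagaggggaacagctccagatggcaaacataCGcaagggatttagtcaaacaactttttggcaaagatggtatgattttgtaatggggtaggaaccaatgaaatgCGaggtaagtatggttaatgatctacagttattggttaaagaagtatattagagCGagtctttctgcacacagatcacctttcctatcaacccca
The stretch of Rps6 lies at chr4:86857318-86857617 on the minus strand, holds 23 CpG and met a region of 4700 bp. That of Ldha lies at chr7:46845554-46845853 on the plus strand and holds 30 CpG. Its region of 3600 bp lay inside the annotated gene, at 2 internal starts. Col3a1 (chr1:45311288-45311587, plus strand) holds 0 CpG and met a region of 3300 bp. Sycp1 (chr3:102936051-102936350, minus strand) holds 21 CpG and Alb (chr5:90460620-90460919, plus strand) holds 3, and neither start had a region within 1000 bp.

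The promoter table gave 21263 annotated starts for 17492 of the 21887 genes. It holds none of the 511 genes of chromosome 18, and covers 81.8% of the genes elsewhere, so the counts that follow are counts of these starts. Of them 11872 had a region within 1000 bp, 55.8%, and 53.1% were themselves covered by one. The median CpG count in the 300 bases was 22 at marked starts and 3 at unmarked starts. Starts with 0 to 1 CpG were marked in 4.10% of 2416 cases, those with 6 to 8 CpG in 31.7% and those with 9 to 12 CpG in 59.4%. From 17 CpG upwards the share lay between 87.7% and 92.6%. The marked regions were also wider at CpG-rich starts, with a median of 1700 bp at 0 to 1 CpG and 3900 bp above 25 CpG. Each step of CpG count held a larger share of marked starts than the step before.

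**Figure D1:**
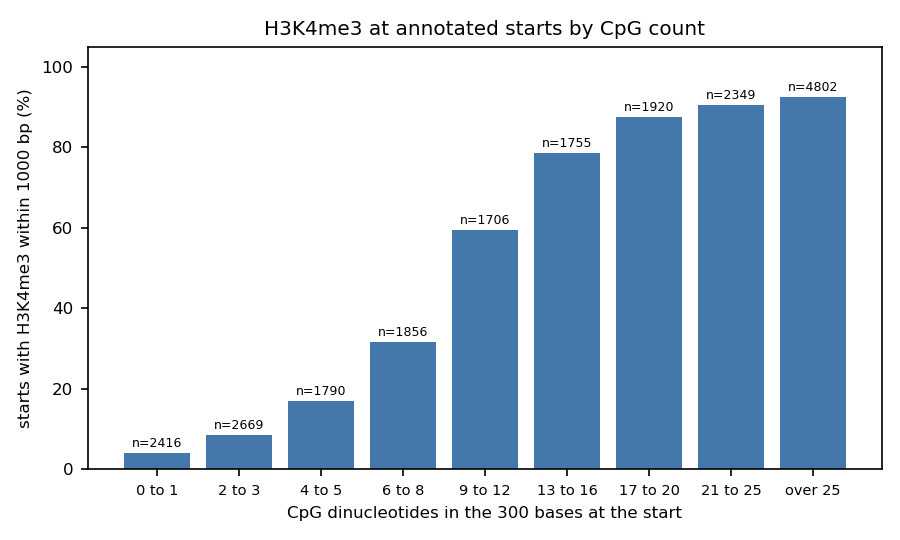
Share of annotated starts with an H3K4me3 region within 1000 bp (vertical axis, percent) for 9 classes of CpG count in the 300 bases at the start (horizontal axis), with the number of starts above each bar. The share climbs from 4.10% at 0 to 1 CpG to 92.6% above 25 CpG.

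The mark was not symmetric about the start. At 5673 starts that were alone in their region, the region reached a median of 734 bp upstream and 2440 bp downstream, and it was longer downstream at 92.2% of them. Where a region held 2 or more starts, the upstream median was 1989 bp and the downstream median 2570 bp over 1863 starts. Strand was known for 9807 genes marked at an end. The 5′ end was within reach of a region in 96.8% of them, and 1376 genes had both ends marked, which were short genes (median length 4.19 kb, against 27.1 kb for genes marked at the 5′ end alone). The 3′ end alone was marked in 313 genes, and 194 of these had an end of another gene within 2000 bp. How often other genes have such a neighbour was not counted, so the 194 cannot be set against a background.

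**Figure D2:**
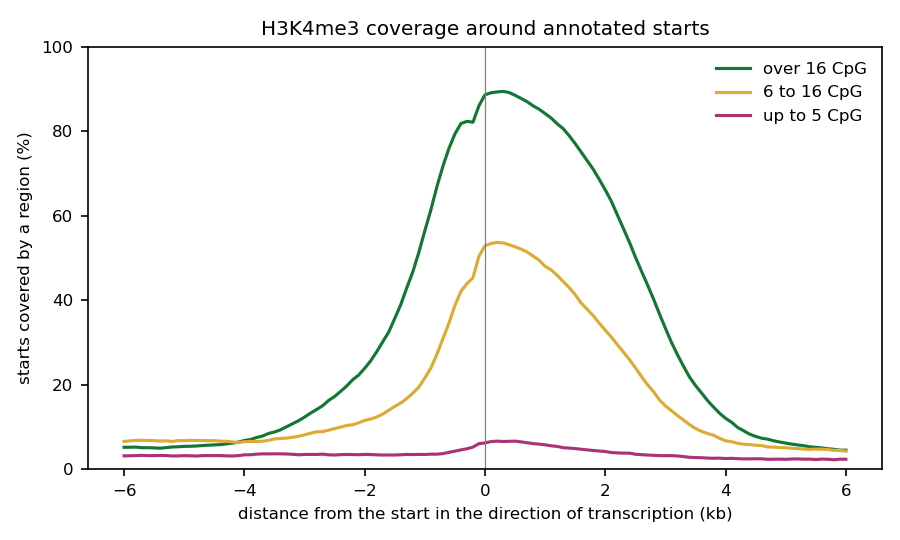
Percent of annotated starts covered by an H3K4me3 region (vertical axis) at each distance from the start in kb (horizontal axis, positive in the direction of transcription), in 3 groups by CpG count. The curve for over 16 CpG stands highest and its downstream shoulder is longer than the upstream one, while the curve for up to 5 CpG stays near the bottom of the plot.

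Short motifs were counted on both strands of the same 300 bases. GGGCGG, the GC box bound by SP1, was in 46.2% of all promoters, 68.2% of marked and 18.4% of unmarked ones. CCGGAAG, the core bound by ETS factors, was in 11.6%, with 18.5% of marked and 2.75% of unmarked. AAGATGGCG, which YY1 binds, was rarer at 1.83% of promoters, and 95.4% of those were marked. TATAAA, the TATA box, went the other way, at 6.34% of marked and 20.5% of unmarked promoters, as did TGANTCA of AP-1 at 4.22% and 10.5%. CCAAT was in 37.9% of marked and 38.5% of unmarked promoters. GGGCGG and CCGGAAG contain CG themselves, and among promoters of 17 or more CpG the marked share was 91.5% with GGGCGG and 89.2% without it, and 97.5% with CCGGAAG and 89.4% without. Among those promoters the marked share was 90.9% with TATAAA (375 promoters) and 91.0% without. Most TATAAA promoters, 1715, had up to 5 CpG, and there the marked share was 6.59% with it and 10.0% without. In the same CpG-poor group it was 19.5% with GGGCGG and 8.40% without. Of the printed promoters, Col3a1 held 1 match to TATAAA, Ldha held 3 to GGGCGG and Rps6 held 1 to CCGGAAG. A match describes letters and not a bound site.

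Gene families were read through 90 lists in 10 classes, beside the 55.6% of all genes. The share of marked genes was above that of all genes in 47 lists and below it in 43. All members were marked in 3 lists and none in 5. Under the midpoint rule the count of marked genes moved by more than 1.5 times in 40 lists. By that rule 8 lists went from above to below the share of all genes, namely the V-ATPase, fibroblast, integrin, TGF-beta, cell cycle inhibitor, Polycomb, Hox and receptor tyrosine kinase lists. In the other direction went 4, the Y chromosome genes, developmental transcription factors, BMPs and GDFs, and adipocyte genes. With annotated starts in place of gene ends, 3 of 89 lists changed side, all from below to above. Lists overlap in a few members, and families in clusters share regions.

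**Figure D3:**
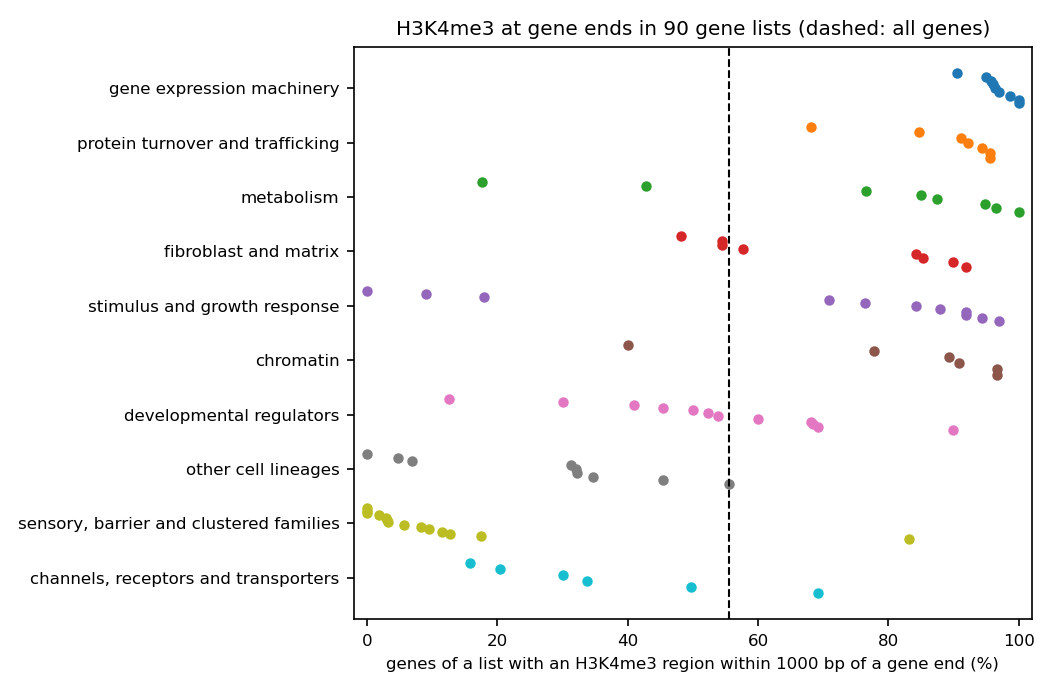
Percent of genes marked (horizontal axis) in each of 90 lists, 1 point per list, in rows by class, with the share of all genes (55.6%) as a dashed line. All 9 lists of gene expression machinery lie above 90%, and all 9 lists of other cell lineages lie at or below the line.

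The machinery of gene expression was marked almost without gaps. All 28 RNA polymerase subunits and all 33 spliceosome and RNA processing genes were marked, and 81 of 84 cytosolic ribosomal protein genes and 77 of 78 mitochondrial ones. The ribosomal genes left out were Rpl10l and Rpl39l, paralogues known from testis, and Rpl32l. The gap among mitochondrial ribosomal proteins, Mrps23, had a 3700 bp region inside the gene. Of the other 8 unmarked members of these 9 lists, each had a region inside as well, such as Med10 (3800 bp), a Mediator subunit, and Cnot7 (5200 bp), a deadenylase of CCR4-NOT. The widest region of the class, 12000 bp, was shared by Rpl7a and Med22, a Mediator subunit. The next lay at Mrpl52, of the mitochondrial ribosome (10100 bp).

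Protein turnover, trafficking and energy metabolism showed the same kind of gap. Among 39 proteasome genes 36 were marked, and those without any region were Psma8, the subunit of the testis proteasome, and Psmb11, that of the thymus. Psma6 had 4900 bp inside. In the V-ATPase, the proton pump of lysosomes, 15 of 22 genes were marked, and among those left out were Atp6v1b1 and Atp6v0a4, known from kidney, and Atp6v0d2, known from osteoclasts. All 17 ATP synthase genes were marked, Atp5b at 9800 bp, and 37 of 39 complex I genes. Of 29 genes of the tricarboxylic acid cycle and its assembly factors 28 were marked, and the remaining gene, Idh2, had a 3800 bp region inside. In glycolysis 17 of 20 were marked, led by Eno3 (10600 bp) and Pkm, the pyruvate kinase of most tissues (9400 bp). The width at Eno3 is also that given for Pfn1 below, and the genes may share a region. Hk1 (hexokinase) and Ldha had regions of 5000 and 3600 bp inside, and Pklr, the pyruvate kinase of liver and red cells, had none. In contrast, 13 of 74 genes of cytochrome P450 families 1 to 4, largely liver enzymes, were marked, with Cyp1b1 at 8400 bp the widest.

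The label of the cells was checked against genes of fibroblasts. Of 34 genes of fibroblasts and their matrix 29 were marked, 85.3%, with a median width of 4600 bp. Under the midpoint rule 8 were, 23.5%, below the 36.9% of all genes. Of the 20 with annotated starts, all 20 had a region within 1000 bp of one, against 56.8% of all genes with annotated starts. Col1a1, which encodes the main chain of type I collagen, and Timp2, an inhibitor of matrix proteases, had the widest regions (7800 bp each). Col5a1 had 7200 bp, and Sparc and Thbs1, both secreted matrix proteins, 7000 bp. Fap, Loxl2, Lum and Thy1 had no region at an end or inside. None of these 4 has a start in the promoter table, so the 20 of 20 leaves them out. Postn, which encodes periostin, had 900 bp inside. The promoter table covers 58.8% of the list, so CpG content was read for 20 of the 34 genes alone, with a median of 8.5. All 7 genes with up to 5 CpG had a region within 1000 bp of a start, against 9.18% of all 6875 such starts. All 3 genes with 17 or more CpG had such a region too. The list was counted by gene and the 6875 by start, so the shares differ in unit. Postn, among the 7, has a start with 5 CpG and a region of 900 bp. It also has a start with 4 CpG and no region. Among the 7, Col6a3 has 3 CpG (region of 2800 bp), Sparc 4 (7000 bp) and Pdgfra, a receptor of platelet-derived growth factor, 5 (5600 bp). These named members were chosen after their values were seen.

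Other structural families of these cells were split. Actin and contractile genes were marked in 23 of 25 cases and had a median width of 5500 bp, led by Tpm1, a tropomyosin (11300 bp), Pfn1, an actin-binding profilin (10600 bp), and Myh9, a nonmuscle myosin (9200 bp). Among transcription factors of mesenchyme 27 of 30 were marked (median 4900 bp), with Foxc1 at 11300 bp and Prrx1 at 9200 bp. In the collagen chains as a whole 24 of 44 were marked, in the integrins 15 of 26 and in the laminins 6 of 11, near the share of all genes. Of 27 matrix metalloproteinases and their inhibitors 13 were marked. Mmp14, a membrane-bound protease, had 10100 bp, while Mmp10, Mmp12 and Mmp13 had no region. The width at Mmp14 is also that given for Mrpl52 above, and the genes may share a region.

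Lists of signalling and growth control differed in share and width. Immediate-early genes were marked in 33 of 34 cases (median 4600 bp), led by Fosl1 (10300 bp) and Fosl2 (9900 bp), which encode Fos-type partners of Jun, and the last, Egr2, had 4400 bp inside. In the TGF-beta pathway 22 of 25 were marked (median 4950 bp), and the widest was Smad7, an inhibitor of the pathway, with 15300 bp. By midpoint 5 of the 25 were marked, and by annotated starts 17 of 18. Among inhibitors of the cell cycle 16 of 19 were marked (median 5000 bp), with 13700 bp at Cdkn2c and 12900 bp at Cdkn2a, the INK4a and ARF locus. By midpoint 7 of these inhibitors were marked, and by annotated starts 14 of 15. Cdkn1a, the target of p53, had no region at an outer end and 2300 bp inside. Replication-dependent histone genes were marked in 57 of 62 cases through 35 separate regions (median 3300 bp), and H2ac1 and H2bc1, variants known from testis, were unmarked. By comparison, 7 of 39 chemokines (median 3200 bp), 3 of 33 interleukins (2600 bp) and 0 of 18 type I interferons were marked. Cxcl12, a chemokine made by stroma, had 5700 bp.

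Enzymes that write, read or remove histone marks were mostly marked, with 20 of 22 genes of H3K4 methyltransferase complexes, 29 of 30 Polycomb genes and 29 of 30 chromatin enzymes that use 2-oxoglutarate. By midpoint 10 of the Polycomb genes were, and by annotated starts 25 of 25. Of the H3K4 methyltransferases themselves, Setd1b had 11500 bp, Kmt2a and Kmt2d 6800 bp each, Setd1a 4900 bp, Kmt2b 4400 bp and Kmt2c 2700 bp; Setd1a, Kmt2b and Kmt2c were chosen after their values were seen. Ash2l and Dpy30, core subunits of the same complexes, had 4300 and 3300 bp inside the gene.

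**Figure D4:**
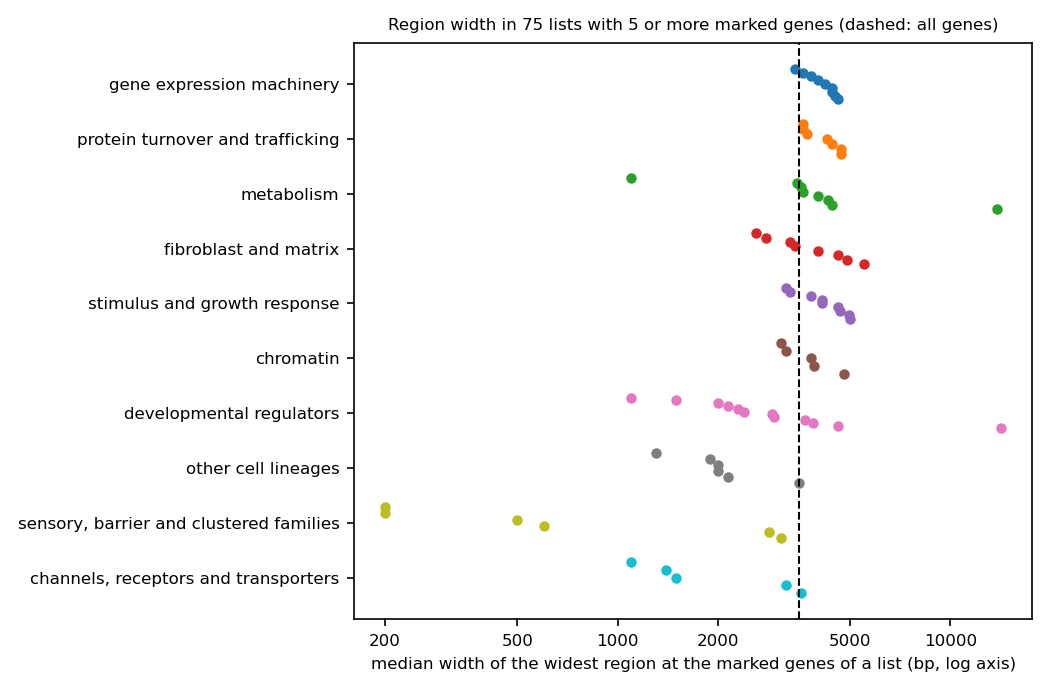
Median width in bp (horizontal log axis) of the widest H3K4me3 region at the marked genes of 75 lists with at least 5 marked genes, 1 point per list, in rows by class, with the median of all marked genes (3500 bp) as a dashed line. Olfactory and vomeronasal receptors lie farthest to the left at 200 bp, and the Hox genes and the glucuronosyltransferases, whose members share regions, stand far to the right.

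Width also differed between lists. Of the 75 lists with at least 5 marked genes, 40 had a median above the 3500 bp of all marked genes, 34 were below it and 1 was equal. The largest medians, 14200 bp for Hox genes and 13800 bp for UDP-glucuronosyltransferases, came from 27 genes in 16 regions and from 9 genes in 2 regions. By annotated starts 19 of 22 Hox genes were marked, but 2 of 19 glucuronosyltransferases, so few of the latter had a region at a start. The 1653 regions that were the widest for 2 or more genes, 3483 genes in all, had a median of 4400 bp. Regions that were the widest for 1 gene alone had a median of 3200 bp. The smallest medians were 200 bp for olfactory and for vomeronasal receptors, 500 bp for taste and trace amine receptors and 600 bp for clustered protocadherins. Cytochrome P450 genes, germline genes and receptors of serotonin, dopamine and acetylcholine had 1100 bp each. The 684 marked genes that also had an H3K27me3 region at an end had a median of 1400 bp, against 3600 bp for the 11479 without one.

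Regulators of development were marked in part. Of 77 developmental transcription factors 35 were marked, 22 of them together with H3K27me3, and their median width was 2000 bp. Gata6 had a region of 8100 bp, whereas Barhl1, Cdx2 and Cdx4, which pattern brain and gut, had none. In the Sox family 12 of 20 were marked, with Sox4 at 7200 bp and Sox9 at 5600 bp, and in the Forkhead family 30 of 44. Wnt ligands were marked in 13 of 19 cases, led by Wnt5a (4200 bp), and Frizzled receptors, to which they bind, in 9 of 10, led by Fzd2 (7400 bp). Of 22 fibroblast growth factors 9 were marked, among them Fgf7 (8800 bp) and Fgf10 (7200 bp), which mesenchyme is known to secrete. Pluripotency genes were marked in 6 of 20 cases, among them Klf4 (3500 bp) and Sox2 (5200 bp).

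Germline genes had CpG-rich promoters and few regions. Of 40 genes of germline and meiosis 5 were marked. The table covers 85.0% of the list, and its promoters have a median of 17.5 CpG. Of the 19 genes with 17 or more CpG 3 were marked, against 91.0% of all 9071 starts of that class. The list was counted by gene and the 9071 by start, so the shares differ in unit. Ddx4, the germ cell helicase, has 38 CpG and Smc1b, a cohesin subunit of meiosis, has 29, and no region lay at either (Smc1b was chosen after its values were seen). The 3 were Stag3 (1700 bp at the start), Syce2 (1100 bp) and Dazl (300 bp). At Hormad1 the region of 2600 bp lay off the far end of the gene and at none of its 2 annotated starts. The reverse case was the Zfp zinc finger family, where 328 of 394 genes were marked. Of its 41 genes with up to 5 CpG 20 were marked at a start, against 9.18% of all 6875 such starts. Here too a count by gene stands beside a count by start.

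Markers of other lineages were mostly without the mark, and none of the 9 lists lay above the share of all genes. The adipocyte list was level with that share by gene ends, at 10 of 18, and above it by midpoint, with 8. By annotated starts it lay below, with 4 of 11 marked against 56.8% of all genes with annotated starts. In skeletal and cardiac muscle 2 of 29 were marked, and in hepatocytes 1 of 21. None of 21 genes of pancreas and gut was. The 4500 bp region counted for Mylpf, a myosin light chain, lay beyond the gene, and its annotated start had no region within 1000 bp. The same held for Cd79a (3900 bp), a subunit of the B cell receptor. In the neuronal list 8 of 25 were marked, the widest Tubb3, a tubulin (3000 bp). Among adipocyte genes Scd1 (5000 bp) and Pparg (2400 bp) were marked, and Adipoq and Fabp4 were not. In epithelial genes 9 of 26 were marked (median 1300 bp), and by annotated starts 3 of 15. Of the 9, 4 also had H3K27me3 at a gene end, as did 684 of all 12163 marked genes.

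Families of sensation and barrier were nearly bare. Of 1106 olfactory receptor genes 36 were marked, 3.25%, by regions of 200 to 500 bp (median 200 bp), and of 353 vomeronasal receptors 11. Without regions of 200 bp these counts were 14 and 5, with regions wider than the median of the list 0 and 1, and with windows of 2500 bp 69 and 23. Keratins were marked in 3 of 53 cases and keratin-associated proteins in 1 of 56, and no member was marked among 39 prolactin and Psg genes, 22 major urinary protein genes and 31 Rhox genes. Olfactory promoters had a median of 1 CpG, and 22 of 921 with up to 5 CpG were marked. Members of these families are near copies of each other. How reads that fit several copies were placed is not stated in the labels, and its part in these counts was not tested.

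Channels and receptors of excitable cells lay between. Potassium channels were marked in 31 of 92 cases, voltage-gated sodium and calcium channels in 3 of 19, and receptors of GABA, glycine and glutamate in 10 of 49. Of the 31 potassium channels 12 also had H3K27me3 at a gene end, as did 684 of all 12163 marked genes. Marked or not, 47 of the 92 had it. Cacna1c, Cacna1d and Cacna1h, which encode calcium channels, had regions of 4100, 4000 and 3700 bp inside the gene alone. Receptor tyrosine kinases were marked in 36 of 52 cases, with Epha3 at 8300 bp, Igf1r at 7400 bp and Pdgfra at 5600 bp. Csf1r, the receptor of macrophages, was unmarked.

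The 15 widest regions reached from 14900 to 31100 bp. After the HoxD region came Nfix (26900 bp), HoxA from Hoxa7 to Hoxa11 (22800 bp), Nr2f2 (22600 bp) and Meis2 (20100 bp), and further down Tsc22d2 and Tbx15 (16100 bp each), Aopep, an aminopeptidase gene (16000 bp), Smad7 (15300 bp) and Tbx5 (14900 bp). Nfix encodes a nuclear factor I protein, Nr2f2 an orphan nuclear receptor and Meis2 a partner of Hox proteins. The HoxD region directly abutted another of 17000 bp at Evx2 and Hoxd13, and together these span 48100 bp, the widest stretch once abutting regions are joined. Others lay at Sfi1 (19700 bp, inside the gene), which encodes a centrosomal protein, at Hjurp (18000 bp), which encodes a centromeric one, and at chr15:85663601-85682700 (19100 bp), with no gene within 1000 bp.

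Regions inside genes fell into wide ones at internal starts and narrow ones elsewhere. Of the 1258 genes marked inside alone, 988 had their starts in the table, and for 564 of these (57.1%, exact CI 53.9 to 60.2) an own annotated start lay within 1000 bp of a region. Where the widest inside region was over 2000 bp this held for 89.2% of 452 genes, at 600 to 2000 bp for 54.2% of 262, and up to 500 bp for 6.93% of 274. Tfap2a, a factor of neural crest and skin (12100 bp), Inhba, the activin A subunit (10900 bp), Ldb1, a LIM-domain binding protein (9900 bp), Rara, a retinoic acid receptor (7900 bp), and Tpm3, a tropomyosin (6700 bp), were of the first kind. Runx1 had 6400 bp at 1 of its 2 starts. A further 64 genes had the end of another protein-coding gene and 68 that of a noncoding gene or pseudogene at the region. In 366 genes none of these lay there, and their median width was 400 bp.

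**Figure D5:**
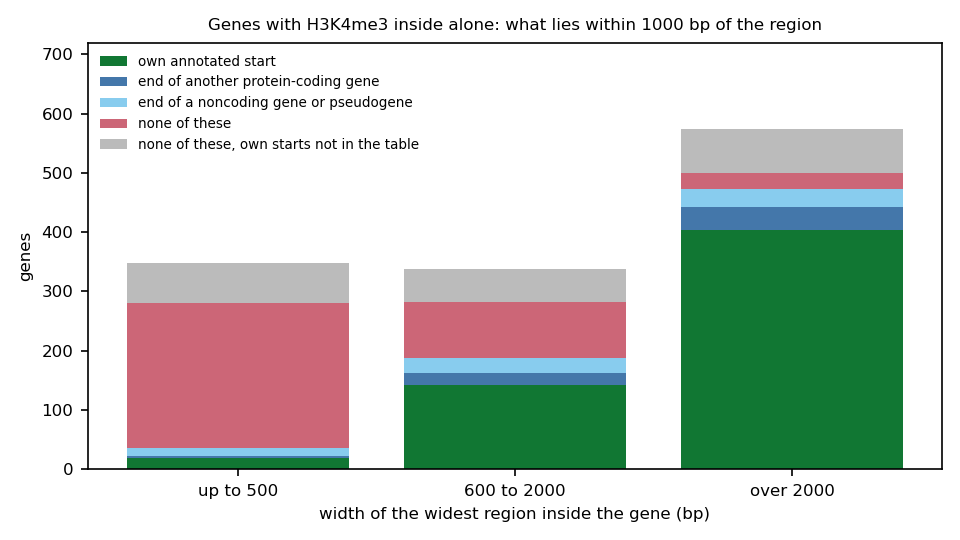
Number of genes with H3K4me3 inside alone (vertical axis) in 3 classes of the width of their widest inside region (horizontal axis, bp), stacked by what lies within 1000 bp of a region. Own starts make up most of the class over 2000 bp (403 genes), and 19 genes of the class up to 500 bp.

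The 10 genes with the most inside regions held 28 to 61 each. Ptprt, a receptor phosphatase of 1139160 bp, held 61, the widest of 600 bp, Sdk1, a synaptic adhesion protein, held 57 (500 bp) and Clstn2, a calsyntenin, held 40 (600 bp). None of these 3 had a region at an annotated start. In 8 of the 10 the widest inside region was at most 600 bp, and the others were Ptprn2 (1400 bp) and Zfp978, a zinc finger gene with 32 regions (4100 bp). In general a region inside alone was found in 20.3% of genes over 100 kb and in 2.96% of genes of 5 to 20 kb.

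Genes with several starts carried the mark at all, some or none of them. Of 2761 genes with 2 or more annotated starts, all were marked in 1369 (49.6%), some in 678 (24.6%) and none in 714 (25.9%). Bdnf, a neurotrophin with many promoters, had 5 of 7 starts marked, Slc29a1, a nucleoside transporter, 7 of 8, and Sgk1, a kinase induced by serum, 4 of 6. These 3 were chosen after their values were seen.

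Regions away from genes were mostly narrow. By their midpoint 7525 regions lay at a gene end (28.2% of regions, 40.6% of the covered bases, median 2500 bp), 10288 inside a gene (median 2200 bp) and 8841 between genes (median 300 bp). By any contact, a rule chosen after seeing the data, regions that touched a gene end were 12187 (45.7% of regions and 76.7% of the covered bases, median 3100 bp), those inside a gene 5883 (median 600 bp) and those between genes 8584 (median 300 bp). By this rule the 5825 regions of the smallest width, 200 bp, lay at a gene end in 2.82% of cases and between genes in 72.2%. Of regions of 2100 to 5000 bp 84.6% lay at a gene end. No signal or score per region was used, so the strength of wide and narrow regions was not compared.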

How the data were processed

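ChIP-seq of 4 samples (2 per line) was read through the single deposited list of H3K4me3 regions, whose columns hold positions alone; the lists of the other antibodies served for overlaps. Chromatin of formaldehyde-fixed cells was cut by MNase and sonication, per the labels. Reads were aligned to mm10 with Bowtie2 2.2.3, per the submitters' processing notes. For the region caller, its settings, the use of input and any pooling of samples, the labels give nothing, and the read depth is unknown, so precision from depth cannot be stated. Every start and end fell on a 100 bp grid.

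Regions were matched to RefSeq genes of GRCm38.p6 with Python 3.11.15 (pandas 2.3.3, numpy 2.4.6, SciPy 1.17.1), with windows of 1000 bp around gene ends, coordinates counted from 1, and exact 95% binomial intervals that cover counting error only. Promoters came from the RefSeq table, for 17492 genes. No test between groups or lists was made. Overlap rules were tested on simulated regions over 7542 genes, with 0 errors. Named genes are, per list, up to 5 with the widest regions, all unmarked where there were at most 6 and otherwise the first 5 by name, and up to 6 with inside regions; added to these are genes at the 15 widest regions and those with the widest or most inside regions. Some genes that this rule names are left out of the text. The members and lists were chosen with earlier results of these data known. Alternatives changed the window, the regions used, the overlap rule, merging and the chromosomes.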

Additional observations from a re-analysis of the deposited data

How the results depend on the processing

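The counts and widths depended most on how a region is assigned. When the midpoint of a region had to lie in the window, 8082 genes were marked in place of 12163, 4986 had a region inside alone in place of 1258, and the median width was 2700 bp in place of 3500 bp. The median width was 3600 bp with regions wider than the median of the list, 3900 bp with regions less than 1000 bp apart merged and 3700 bp with abutting regions joined, an alternative chosen after seeing the data. Without regions of 200 bp, 3.23% of starts with 0 to 1 CpG were marked in place of 4.10%. By midpoint 7525 regions lay at a gene end, and by any contact, also chosen after seeing the data, 12187 did. The number of lists above the share of all genes ranged from 43 to 50 over all alternatives. The number of marked genes stayed within 1.5 times its value in 70 of 89 lists with annotated starts alone, in 50 of 90 with midpoints and in at least 79 of 90 under each other alternative. With annotated starts alone a list holds only its genes in the promoter table, so its count can fall while its share does not. Laminins, for example, went from 6 of 11 to 3 of 5. No paired analysis was possible because each antibody has 1 list and no value per sample, and no replicate could be left out for the same reason. Depth per sample is unknown, so no limit of detection can be given for genes without a region.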

Other observations

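Genes outside the protein-coding set carried the mark less often, with tRNA genes the exception. Of 12727 long noncoding RNA genes 2379 were marked (18.7%), of 1228 miRNA genes 225 (18.3%), of 9944 pseudogenes 327 (3.29%) and of 408 tRNA genes 259 (63.5%). More than 5000 bp from any protein-coding gene end, the shares were 6.59% for long noncoding RNAs, 6.06% for miRNAs and 55.3% for tRNAs. Of 26 imprinted and nuclear noncoding RNAs 22 were marked. Malat1 and Neat1, both abundant nuclear RNAs, had 8700 and 7400 bp, Dnm3os, the host of a miRNA cluster in mesenchyme, 8400 bp, and Gas5, a host of snoRNAs, 7500 bp. Meg3 had 2000 bp and H19 1100 bp, both chosen after their values were seen. Hotair, Rian and Mirg had no region, and Rmst had one inside alone.

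The sex chromosomes differed from the rest in share and in width. Xist, on the X, had 3400 bp in the same list, and which line gave it or the Y regions cannot be told. On the autosomes 57.1% of genes were marked with a median of 3500 bp, on the X 37.2% with a median of 2200 bp, and on the Y 4 of 256. The 4 were Uty (1700 bp), Ddx3y (1600 bp), Eif2s3y (1400 bp) and Kdm5d (1200 bp), and their X partners Kdm6a, Ddx3x, Eif2s3x and Kdm5c had 1500, 5300, 3500 and 3100 bp at an end. Inside the gene Kdm6a had a wider region of 4500 bp, Eif2s3x had 700 bp, Ddx3x 400 bp and Kdm5c none. Among genes of the expression, turnover and trafficking lists, 16 of 18 on the X were marked with a median of 2750 bp, and 560 of 595 on the autosomes with a median of 4150 bp.

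Marked and unmarked genes ran in blocks along chromosomes. The longest marked run held 34 genes of a histone cluster on chromosome 13, from Zfp322a to H1f1. Unmarked runs held 247 genes on the Y, 235 of them with Gm names, and 88 on chromosome 7 with 70 vomeronasal receptors. Others held 61 on chromosome 2 that were all olfactory receptors, and 52 on chromosome 11 from Krt12 to Krt15 among the keratins. The part of reads that fit several copies was not tested for these runs.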
